A study of Mus musculus with 12 samples.

Results

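Nt5e and Anpep encode 2 enzymes whose catalytic sites face the outside of the cell, CD73 and CD13, and their mRNA was followed here through 12 tumoursphere libraries of mouse mammary cancer cells. Both were chosen from earlier results of the same libraries, Nt5e because it was far lower and Anpep because it was far higher in the Nfib KO libraries than in the parental ones, and Anpep also for its difference between the LM1 and LM9 parental libraries. They are 2 of the 18278 genes in the count tables, and both passed the filter on low counts together with 18176 genes in all. The values that selected them are therefore given as a description, with standard errors and without p-values, and tests are kept for comparisons that the choice did not use.

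The libraries form 4 groups of 3. LM1 and LM9 are GFP-sorted lines grown out of the lungs of NOD/SCID mice, immunodeficient hosts, that carried tumours of a mammary cancer line expressing PIK3CA H1047R from the ubiquitous CAG promoter and mutagenised with the piggyBac transposon. Per the methods, LM1 Nfib KO and LM9 Nfib KO were made from them with CRISPR-Cas9 guides that shift the reading frame of Nfib, the gene of the transcription factor NFIB, and each was a pool of single-cell clones, more clones for LM1 than for LM9. All 4 groups thus share the PIK3CA transgene and the transposon system, per the methods. Spheres formed over 6 days from 10000 cells per mL in non-adherent plates in B27 medium with EGF and basic FGF at 20 ng/mL each, and RNA was taken after trypsin had dissociated the spheres.

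CD73 is a dimeric enzyme tethered to the outer leaflet of the membrane by a glycosylphosphatidylinositol anchor, and it removes the phosphate of extracellular AMP to yield adenosine. It stands at the end of a chain in which released ATP is first cut to AMP by other surface nucleotidases, and the adenosine it makes acts on 4 receptors before it is deaminated or taken up. In tumours it is known for producing adenosine that restrains T cells. CD13, also called aminopeptidase N, is a zinc metalloenzyme of the M1 family that trims neutral amino acids from the N-terminus of peptides such as angiotensins and enkephalins. It is abundant on the brush border of kidney and intestine and on myeloid cells, fibroblasts and activated endothelium, and is used as a marker of tumour vessels.

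On the mm10 build of the mouse genome Nt5e (ENSMUSG00000032420) lies on the plus strand of chromosome 9 from 88327197 to 88372092. GENCODE M21 gives it 4 transcripts, a principal one of 9 exons, and 8602 bases of exon in all, and no other gene overlaps it. Anpep (ENSMUSG00000039062) lies on the minus strand of chromosome 7 from 79821803 to 79861059, with 6 transcripts, principal ones of 21 and 20 exons and 4135 bases of exon. Gm44974, a gene model on the same strand, lies inside it but shares 0 exon bases with it and was not listed in the count tables.

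The promoters of the 2 genes are shown because their levels moved in opposite directions between the same libraries. The windows, from RefSeq on GRCm38.p6, run from 250 bases before to 50 bases after the start that RefSeq gives. Both, chr7:79848161-79848460 for Anpep and chr9:88327359-88327658 for Nt5e, lie inside the GENCODE bounds given above. GENCODE thus places an outer start upstream of each window. Other starts were not searched, and which start these libraries used was not tested. Both windows are rich in G and C, 71.0% for Nt5e and 72.3% for Anpep against a median of 52.7% over all 32817 promoter windows. The 250 bases before the Anpep start, on the minus strand at chr7:79848211-79848460, are printed 5′ to 3′ with GCGTG and GGGCGG in capitals, and below them stand 30 bases around the GCGTG of Nt5e, on the plus strand at chr9:88327459-88327488, and 30 bases at the far end of its window, chr9:88327374-88327403, where the reverse complement of the latter motif occurs in 2 overlapping copies.
Anpep: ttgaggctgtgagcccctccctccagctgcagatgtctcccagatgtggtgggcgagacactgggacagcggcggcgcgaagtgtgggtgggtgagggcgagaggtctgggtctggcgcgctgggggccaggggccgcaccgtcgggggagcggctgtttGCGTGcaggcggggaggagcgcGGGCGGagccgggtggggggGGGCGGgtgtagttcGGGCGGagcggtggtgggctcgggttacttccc
Nt5e near GCGTG: tccctgcgggctGCGTGtgctgggccagag
Nt5e at GGGCGG: cagttgtcaccgCCGCCCGCCCggggactg

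Motifs were searched on both strands of each window. GGGCGG, the letters that Sp1 family factors read, occurred 4 times in each gene, and 35.6% of all promoter windows hold it at least once. In Anpep all 4 copies lie on the strand of the gene, at -68, -48, -33 and 21 from the start, whereas in Nt5e all 4 lie on the opposite strand, at -223, -219, -24 and -19. GCGTG, a core read by hypoxia-inducible factors, was found 1 time in each, at -90 in Anpep and -138 in Nt5e, and in 32.4% of all windows, whereas the related ACGTG, in 19.6% of all windows, was in neither. TTGGC, the core of an NFI site, was in neither window and in 46.7% of all windows, and the full palindromic NFI site was in neither and in 0.0366% of all. TGACGTCA (1.79%), TGANTCA (7.81%) and TATAAA (13.6%) were also in neither. A match is no evidence of a bound site, and an absent match covers only these letters in these 300 bases.

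Facts of the libraries that touch the results come first. Totals ran from 29249075 to 37162594 counts, so that 3 counts, taken as the floor of detection, stood for 0.0807 to 0.103 CPM (counts per 1000000 counts, scaled by TMM factors as all CPM values here). The targeted gene showed no drop in mRNA. Mean Nfib was 218 CPM in LM1 against 235 in its KO (adjusted p = 0.533, limma-voom), and LM9 had 154 CPM against 240 in its KO (adjusted p = 0.0026, limma-voom). A frameshift need not lower the mRNA, so these values do not check the labels, by which the groups are called throughout. Several markers of the labelled tissue were nearly absent from the Nfib KO libraries: E-cadherin (Cdh1) had at most 1 count, keratin 18 (Krt18) at most 4 and keratin 8 (Krt8) at most 7 in any of them, against means of 11.3, 480 and 213 CPM in LM1. Other markers of the same list, Krt14 and the estrogen receptor gene Esr1, were higher in the Nfib KO libraries (Krt14 6.79 against 0.0584 CPM in LM1 and 6.51 against 0.145 CPM in LM9, Esr1 26.9 against 5.32 CPM in LM9). Whether the libraries labelled Nfib KO derive from the LM1 and LM9 cells as labelled was not tested, and "rose" and "fell" mean here only a higher or lower level in them than in the parental libraries. The replicate named LM9 1 stood closer to the LM1 libraries (Pearson r across genes of 0.992 on log2 CPM with each) than to LM9 replicates 2 and 3 (0.964 to 0.966), which had r = 0.989 with each other, so the differences of Nt5e and Anpep that involve LM9, and the counts of the gene lists, are also given without it. Without it Nfib stood at 127 CPM in LM9 and the Nfib difference in LM9 was 0.93 ± 0.07, still past the threshold. The labels do not say whether the 3 libraries of a group came from separate cultures, so p-values measure only the spread between these libraries, which may be technical.

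Nt5e mRNA was abundant in every parental library and scarce in every library labelled Nfib KO. The LM1 libraries held 6945, 8386 and 7019 counts, or 246.2, 257.0 and 253.7 CPM, and the LM9 libraries 7425, 6478 and 6946 counts, or 250.5, 261.0 and 273.4 CPM. The LM1 Nfib KO libraries held 275, 300 and 275 counts (6.92, 7.84 and 7.27 CPM) and the LM9 Nfib KO libraries 275, 285 and 264 counts (7.13, 6.93 and 6.86 CPM). The lowest parental library thus stood at 246.2 CPM and the highest Nfib KO library at 7.84 CPM, with no overlap. Even in the Nfib KO groups the transcript was well above the floor of detection, at 7.34 ± 0.463 CPM (SD, n = 3) in LM1 Nfib KO and 6.98 ± 0.139 CPM (SD, n = 3) in LM9 Nfib KO, against 252.3 ± 5.53 CPM (SD, n = 3) in LM1 and 261.6 ± 11.5 CPM (SD, n = 3) in LM9.

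Anpep gave the mirror image, from a much deeper low state. The LM1 libraries held 16, 15 and 16 counts (0.567, 0.460 and 0.578 CPM) and the LM9 libraries 2, 3 and 2 counts (0.0675, 0.121 and 0.0787 CPM). The LM1 Nfib KO libraries held 10112, 9493 and 9632 counts (254.5, 248.0 and 254.5 CPM) and the LM9 Nfib KO libraries 9670, 10075 and 9704 counts (250.7, 245.1 and 252.2 CPM). No parental library reached 1 CPM and no Nfib KO library fell below 245.1 CPM. The parental means were 0.535 ± 0.0655 CPM (LM1) and 0.0890 ± 0.0282 CPM (LM9), and the Nfib KO means 252.3 ± 3.75 CPM (LM1) and 249.3 ± 3.74 CPM (LM9), each with its SD and n = 3.

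**Figure D1:**
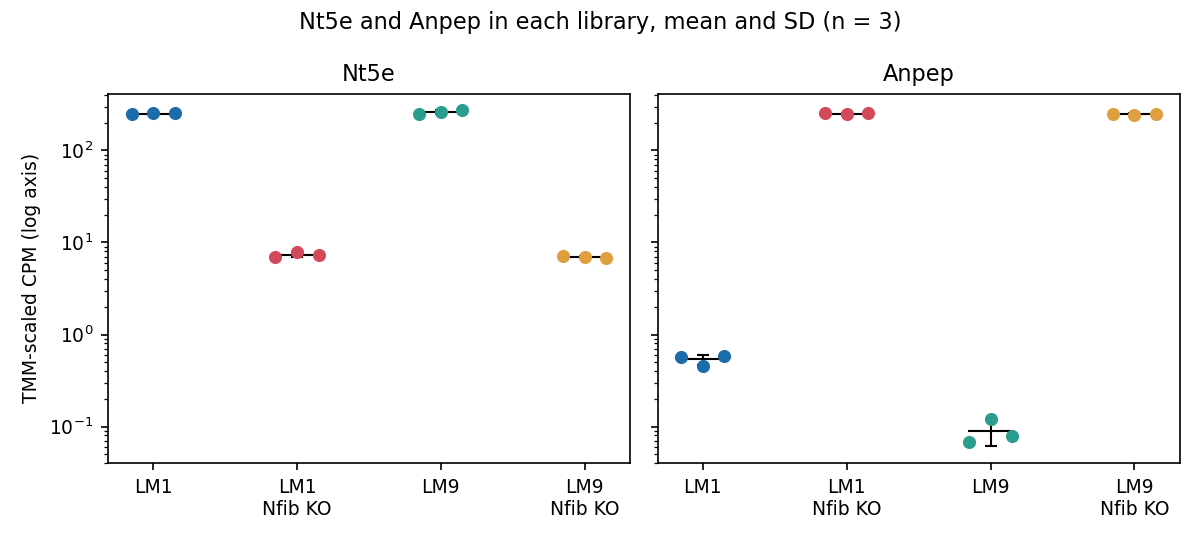
TMM-scaled CPM (log axis) of Nt5e (left) and Anpep (right) in each library, with 1 point per library and black marks for the mean and SD of 3 libraries per group. Nt5e sits between 246.2 and 273.4 CPM in the parental libraries and between 6.86 and 7.84 CPM in the Nfib KO libraries, whereas Anpep sits between 0.0675 and 0.578 CPM and between 245.1 and 254.5 CPM, respectively.

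Expressed as differences, Nt5e was lower by 5.10 ± 0.07 on the log2 scale (SE) in LM1 Nfib KO than in LM1, and the LM9 difference was -5.23 ± 0.07 (LM9 Nfib KO minus LM9). In pooled counts LM1 held 34.4 times the Nt5e of LM1 Nfib KO (95% interval 32.1 to 36.9, counting error only) and LM9 37.4 times that of LM9 Nfib KO (34.9 to 40.2). Anpep was higher by 8.85 ± 0.15 in LM1 Nfib KO and by 11.22 ± 0.22 in LM9 Nfib KO on the log2 scale. The denominators of Anpep are small, 47 counts over the 3 LM1 libraries and 7 over the 3 LM9 libraries, and the pooled ratios are accordingly wide, 475 (357 to 647) for LM1 and 2840 (1380 to 7070) for LM9. Without LM9 replicate 1 the LM9 differences were -5.25 for Nt5e and 11.05 for Anpep. In these 2 contrasts 81.2% and 82.3% of the 18176 genes tested passed an adjusted p of 0.05 (limma-voom), 43.1% and 44.3% higher and 38.1% and 38.0% lower in the Nfib KO libraries, and because the members were selected on the same contrasts their own calls carry no information. In bulk RNA fewer cells of a type and less RNA per cell cannot be told apart.

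Per kilobase of exon, the scale on which 2 genes can be compared, the order of the enzymes was opposite in parental and Nfib KO libraries. Nt5e stood at 29.3 CPM per kb in LM1 and 30.4 in LM9, where Anpep stood at 0.129 and 0.0215, a ratio of 227 in LM1 and of 1410 in LM9, the latter resting on 7 counts. In LM1 Nfib KO and LM9 Nfib KO, Anpep stood at 61.0 and 60.3 CPM per kb and Nt5e at 0.854 and 0.811, ratios of 71.5 and 74.4 in the other direction. Among 18268 genes with a length, Nt5e ranked 2274 in LM1 and 2429 in LM9 from the top, then 13264 and 13382 in the Nfib KO groups. Anpep went from ranks 15836 and 16966 to 1027 and 1032.

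The parental lines differed little in Nt5e. LM1 minus LM9 was -0.05 ± 0.05 on the log2 scale (95% interval -0.17 to 0.07, adjusted p = 0.457 by limma-voom), and the LM1 range of 246.2 to 257.0 CPM overlapped the LM9 range of 250.5 to 273.4 CPM. Without LM9 replicate 1, the lowest of the LM9 libraries for Nt5e in TMM-scaled CPM but the highest in CPM of total counts (237.6 against 215.9 and 224.7), the difference was -0.08 ± 0.03 and passed the threshold at an adjusted p of 0.0469. Over 21 alternative settings it ran from -0.08 to 0.08 with adjusted p from 0.0469 to 0.834, so its direction was not settled. The loss of Nt5e in the Nfib KO libraries was 0.12 ± 0.10 smaller in LM1 than in LM9 (interaction, 95% interval -0.10 to 0.35). Without LM9 replicate 1 it was 0.15 ± 0.09 smaller. This interaction is made of the contrasts that chose the gene, so it is given without a p.

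Anpep separated the parental lines without overlap, from 15 to 16 counts in LM1 and 2 to 3 in LM9. The difference, part of what chose the gene, was 2.38 ± 0.27 on the log2 scale, and the pooled counts of 47 and 7 gave a ratio of 6.06 (2.72 to 15.9). Without LM9 replicate 1 the difference was 2.22 ± 0.44. The exact 95% Poisson interval of a single LM1 library was 9.15 to 25.98 for 16 counts and 8.40 to 24.7 for 15. That of an LM9 library was 0.619 to 8.77 for 3 counts and 0.242 to 7.23 for 2. Scaled to CPM, the interval of LM9 replicate 2 reached 0.353, above the lower ends in LM1 (0.324, 0.257 and 0.331 in replicates 1 to 3). These counts helped to choose the gene, so the intervals describe counting error and test nothing. All 3 LM9 libraries lie at or under the floor of 3 counts, so their level is bounded rather than measured. Limma-voom called 1 gene of 18176 between LM1 and LM9 (0.00550%), against 8661 at an unadjusted p under 0.05, 1 by edgeR and 6159 by DESeq2, and without LM9 replicate 1 it called 11995. The corresponding interaction of Anpep, the rise in LM1 minus the rise in LM9, was -2.37 ± 0.27, made up of the parental difference of 2.38 and a difference between the Nfib KO groups of 0.02, and -2.20 ± 0.44 without LM9 replicate 1.

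**Figure D2:**
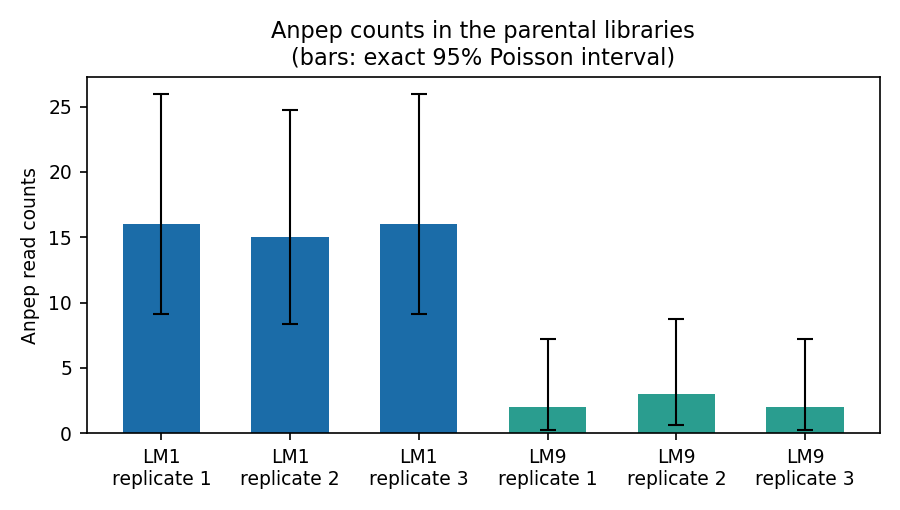
Anpep read counts (vertical axis, from 0) in the 6 parental libraries, with exact 95% Poisson intervals as error bars that cover counting error only. The 3 LM1 libraries hold 15 to 16 counts and the 3 LM9 libraries 2 to 3.

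LM9 replicate 1 held 2 counts of Anpep, as low as LM9 replicates 2 and 3, while in most genes it lay with LM1. Over the 3818 genes in which LM1 and LM9 replicates 2 and 3 differed by at least 1 on the log2 scale, its place was expressed as 0 at the LM1 mean and 1 at the mean of LM9 replicates 2 and 3. The median place was 0.021, and 290 genes (7.6%) lay nearer to LM9 replicates 2 and 3. Anpep stood at 1.217, from log2 CPM of -0.86 in LM1, -3.57 in LM9 replicate 1 and -3.09 in LM9 replicates 2 and 3. Anpep was chosen partly for its difference between the LM1 and LM9 replicates, so a place near 1 follows from the choice, and it rests on 2 counts, under the floor, and 5 in the other 2 libraries. Nt5e, with a difference of -0.08, was not among these genes.

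**Figure D3:**
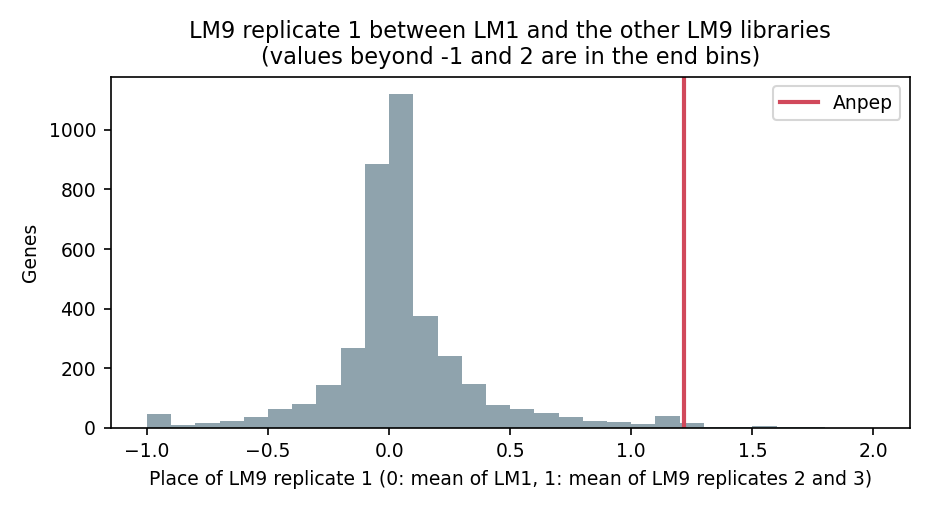
Number of genes (vertical axis) by the place of LM9 replicate 1 (horizontal axis, no unit) between the mean of LM1, at 0, and the mean of LM9 replicates 2 and 3, at 1, for 3818 genes. Most genes lie around the median of 0.021, and the line for Anpep, a gene chosen partly for this difference, stands at 1.217.

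The Nfib KO groups were alike in both enzymes. LM1 Nfib KO minus LM9 Nfib KO was 0.07 ± 0.09 on the log2 scale for Nt5e (95% interval -0.12 to 0.26) and 0.02 ± 0.05 for Anpep (-0.09 to 0.13), each with an adjusted p of 1.00 by limma-voom. These intervals bound the difference and do not show that it is zero. In this contrast 0 of 18176 genes (0%) were called, and 178 had an unadjusted p under 0.05, while edgeR and DESeq2 also called 0. The interaction across all genes likewise gave 0 calls (0%) by limma-voom, with 4495 genes at an unadjusted p under 0.05, 1 call by edgeR and 78 by DESeq2, and 10444 without LM9 replicate 1. The coefficient of variation among the 3 libraries was 1.49% and 1.5% for Anpep and 6.31% and 2.00% for Nt5e in LM1 Nfib KO and LM9 Nfib KO.

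The rest of the adenosine chain moved in both directions. Of 51 symbols listed for the production, release, sensing and clearance of extracellular ATP and adenosine, Nt5e left out, 36 were tested. In LM1 Nfib KO 17 were higher, 15 lower and 4 not called (88.9% called), and in LM9 Nfib KO 18 were higher, 15 lower and 3 not called (91.7%), beside 81.2% and 82.3% of all genes. The median log2 difference of the list was 0.00 and 0.24, against 0.08 and 0.13 for all genes. In both lines 17 were higher and 14 lower. Of all genes, 43.1% and 44.3% were higher and 38.1% and 38.0% lower in LM1 Nfib KO and LM9 Nfib KO. The share of all genes called the same way in both lines is not given here. Counts of genes called in both lines, here and by role below, thus have no background beside them and only describe the lists.

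Of 7 genes listed as surface and secreted nucleotidases that make AMP, 4 fell and 2 rose in both lines. The 2 that rose were Entpd5 and Entpd6, and whether either supplies AMP to CD73 was not tested. Scaled to total counts 3 fell in both, and without LM9 replicate 1 again 4, with Entpd3 no longer called in LM9 and Enpp1 called in LM1. Cd38, which consumes NAD and so feeds a second route to AMP, fell from 30.3 to 0.225 CPM in LM1 and from 26.6 to 0.213 CPM in LM9 (log2 differences -7.08 ± 0.36 and -6.92 ± 0.36). Entpd5, a nucleoside diphosphatase of the secretory pathway, had the highest level per kilobase of this role in the Nfib KO groups (5.39 and 5.58 CPM per kb), but not in LM1, where Cd38 stood highest at 7.79, or in LM9, where the Cd38 relative Bst1 did at 8.94. LM9 replicate 1 differed here, with Bst1 at 6.85 CPM against 41.1 and 41.0 in replicates 2 and 3, and Cd38 at 32.6 against 24.0 and 23.1. Entpd5 rose from 13.2 to 32.6 CPM and from 11.5 to 33.7 CPM. Of the other nucleotide hydrolases, which can also act on AMP or related nucleotides inside or outside the cell, 6 of 7 rose in both lines, or 5 without LM9 replicate 1 or with median-ratio scaling, where Nt5c3b lost its call in LM9. The cytosolic nucleotidase Nt5c rose from 8.72 to 38.5 CPM in LM1 and from 11.7 to 36.5 CPM in LM9, and Alpl, tissue-nonspecific alkaline phosphatase, which also dephosphorylates AMP at the cell surface, from 27.8 to 53.3 CPM and from 30.9 to 52.2 CPM. Acpp, prostatic acid phosphatase and likewise an ectonucleotidase, fell from 4.93 to 0.776 CPM and from 3.70 to 0.824 CPM.

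The adenosine receptors did not move together. Adora1, the Gi-coupled A1 receptor, averaged 17.3 CPM in LM1 and 31.0 in LM9 (16.5, 37.1 and 39.5 in replicates 1 to 3). It fell in both lines, with no Nfib KO library above 2 counts. Adora2b, the low-affinity Gs-coupled receptor, fell from 1.18 to 0.301 CPM and from 1.30 to 0.440 CPM, by 1.94 ± 0.19 and 1.53 ± 0.18 on the log2 scale. Adora2a, the high-affinity Gs-coupled receptor, rose from 0.107 to 0.751 CPM and from 0.122 to 0.787 CPM, from 0 to 7 counts in a parental library to 24 to 36 in a Nfib KO library. Adora3 was not analysed here.

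In clearance and transport 3 of 7 genes rose and 3 fell in both lines, a balance that depended on the scaling, since with total counts 3 rose and 1 fell in LM1 and 5 rose and 1 fell in LM9. Slc29a1, the equilibrative transporter that carries adenosine across the membrane and the most expressed of the role per kilobase, went from 125 to 104 CPM and from 134 to 105 CPM, small differences that passed the threshold (adjusted p = 0.000797 and 0.000102, limma-voom) but not with scaling to total counts, where they were -0.04 and 0.01 on the log2 scale. Slc29a2, a second equilibrative transporter, fell from 7.27 to 3.63 CPM and from 8.58 to 3.4 CPM. Slc28a1, a concentrative nucleoside transporter, had at most 1 count in a parental library and 7 to 16 in a Nfib KO library. Upstream, 3 of 4 genes of ATP release rose. Panx1, a channel that lets ATP out of cells, went from 1 to 6 counts in a parental library to 574 to 664 in a Nfib KO library, and Gja1, connexin 43, from 147 to 290 CPM and from 157 to 296 CPM. Slc17a9, the vesicular nucleotide transporter, fell from 0.572 to 0.0259 CPM and from 0.590 to 0.101 CPM.

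Of the P2 receptors, which sense ATP and other nucleotides rather than adenosine, 2 of 8 rose and 3 fell in both lines. P2rx7, an ATP-gated channel with the highest level per kilobase among them in the parental groups, though below P2rx4 in the Nfib KO groups, fell from 69.6 to 35.3 CPM in LM1 (adjusted p = 0.000283, limma-voom) and stood at 48.5 and 35.4 CPM in LM9 and LM9 Nfib KO (adjusted p = 0.0566). The log2 difference of P2rx7 in LM9, -0.40 ± 0.18, was -0.41 with median-ratio scaling (adjusted p = 0.0476), -0.04 with total counts and -0.11 without LM9 replicate 1, which held 69.2 CPM against 37.6 and 38.8 in the other LM9 libraries. P2ry6, a UDP receptor, fell from 9.55 to 0.0702 CPM and from 6.19 to 0.118 CPM, the LM9 mean being 3.86 CPM without replicate 1. P2rx3 had 0 to 1 counts in a parental library and 14 to 19 in a Nfib KO library.

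Anpep's relatives did not share its direction as a group. Of 30 symbols of the M1 aminopeptidase family and other cell-surface peptidases, Anpep left out, 17 were tested. In LM1 Nfib KO 4 were higher, 9 lower and 4 not called (76.5% called), and in LM9 Nfib KO 5 were higher, 8 lower and 4 not called (76.5%), beside 81.2% and 82.3% of all genes. The medians were -0.23 and -0.19, against 0.08 and 0.13 for all genes. In both lines 3 were higher and 8 lower. Scaled to total counts, the calls were 6 higher and 8 lower in LM1 and 7 and 7 in LM9. The medians were then -0.01 and 0.16, against 0.31 and 0.49 for all genes. Without LM9 replicate 1 the counts for LM9 were 6 higher and 10 lower, and those of the adenosine list 18 and 14, in a fit that called 88.9% of all genes. In the same fit the LM1 counts were 6 higher and 9 lower for the peptidases and 17 and 17 for the adenosine list, with 88.6% of all genes called. None of the 25 genes named by rule (both lists, Nfib and Hif1a) gained or lost its call in either line without that library.

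Within the M1 family 2 of 8 genes rose and 2 fell in both lines, or 3 and 1 with total counts, where Lta4h lost its calls and Rnpep gained one. Npepps, the cytosolic puromycin-sensitive aminopeptidase and the most expressed of the family per kilobase over all libraries, stood at 199 and 191 CPM in LM1 and LM1 Nfib KO (adjusted p = 0.551, limma-voom) and rose from 167 to 195 CPM in LM9 (adjusted p = 0.0376). Rnpepl1, an aminopeptidase B-like enzyme, rose from 28.9 to 56.0 CPM and from 17.0 to 53.5 CPM. Lvrn, laeverin, fell from 0.822 to 0.0606 CPM and from 0.578 to 0.0508 CPM. Without LM9 replicate 1 the LM9 means of Rnpepl1 and Lvrn were 11.2 and 0.379 CPM.

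Of 9 other cell-surface peptidases 6 fell and 1 rose in both lines, with 2 rising with total counts or without LM9 replicate 1. Ece1, endothelin-converting enzyme, had the highest level per kilobase of the role in the parental groups, though carboxypeptidase D (Cpd) was slightly above it in the Nfib KO groups. It fell from 721 to 60.6 CPM and from 560 to 58.4 CPM (log2 differences -3.57 ± 0.13 and -3.23 ± 0.13). Ace, the angiotensin-converting enzyme, averaged 114 CPM in LM1 and 130 in LM9 and fell to 0 or 1 counts in each Nfib KO library. Mep1a, a subunit of the metalloprotease meprin, had 0 to 3 counts in a parental library and 39 to 53 in a Nfib KO library. Hif1a, which encodes a hypoxia-inducible factor subunit of the kind that reads GCGTG, fell from 555 to 172 CPM in LM1 and from 469 to 179 CPM in LM9.

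**Figure D4:**
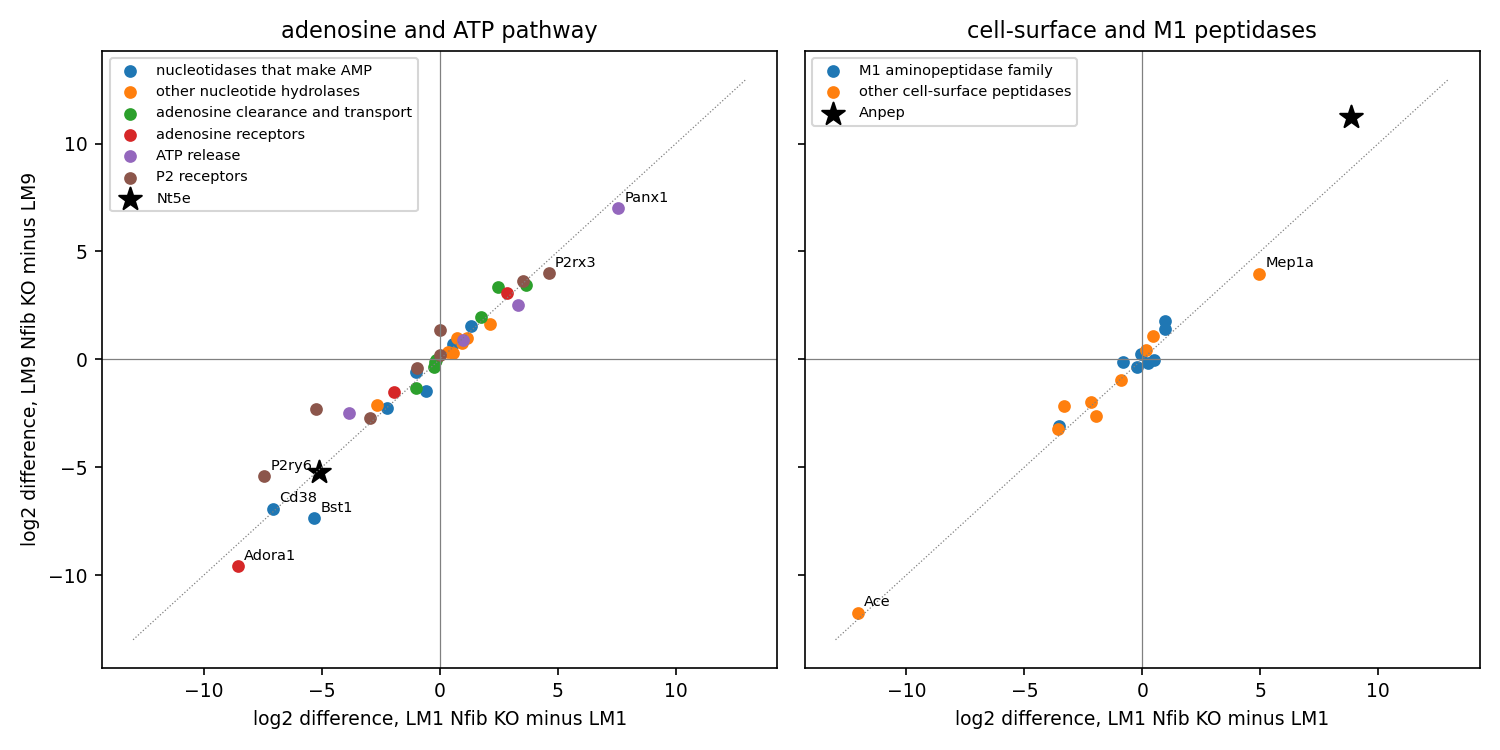
Log2 differences of each listed and tested gene in LM1 Nfib KO minus LM1 (horizontal axis) and LM9 Nfib KO minus LM9 (vertical axis), for the adenosine and ATP pathway (left, 36 genes, colours for roles) and the peptidases (right, 17 genes), with Nt5e and Anpep as stars and genes whose mean difference exceeds 4 named. Genes lie on both sides of 0 in each panel, and the dotted line marks equal differences, above which Anpep stands at 8.85 and 11.22.

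The summed levels of markers of several cell types differed between the same libraries, each sum carried by few genes and with members of most lists going the other way. Those of mammary epithelium (8 of 10 in the tables) ran from 761 to 812 CPM in LM1 and 810 to 1380 in LM9, most of it Krt18 and Krt8, and from 34.8 to 36.7 CPM in the Nfib KO libraries, where Krt14 and Esr1 were higher as given above. Those of fibroblasts (9 of 10) ran from 246 to 388 CPM in the parental and 1320 to 1410 CPM in the Nfib KO libraries. Most of the Nfib KO sum was Col1a1, which went from 6.10 to 958 CPM in LM1 and from 3.25 to 899 CPM in LM9. Between LM1 and its KO, Pdgfrb went from 1.63 to 116 CPM, Col3a1 from 0.219 to 20.4, Dpt from 0 to 6.72 and Pdgfra from 201 to 282. Col1a2 and Lum, at 0 to 1 counts in every parental library, reached only 0.760 and 0.312 CPM in LM1 Nfib KO. Only decorin (Dcn) and endoglin (Eng) of this list went down, Dcn from 90.7 to 11.5 CPM and Eng from 80.0 to 1.58 CPM in LM1 and its KO. Those of endothelium (4 of 8) ran from 0.675 to 2.72 CPM and from 87.0 to 94.2 CPM, most of it Cdh5, which had no more than 1 count in a parental library. Vwf went from 0.578 to 18.0 CPM in LM1 and from 0.824 to 17.6 in LM9, and Esam from 0.112 to 1.55 and from 0.138 to 1.72. Pecam1 stood at 0.314 and 0.433 CPM in LM1 and its KO and at 0.88 and 0.332 CPM in LM9 and its KO. Those of kidney tubule (6 of 13) ran from 8.19 to 27.0 CPM and from 988 to 1120 CPM, nearly all of it Aqp2, which had at most 1 count in a parental library and a mean of 1090 CPM in LM1 Nfib KO and 1010 CPM in LM9 Nfib KO. Pax2 and Pax8 reached at most 1 count in the parental and 26 in the Nfib KO libraries, and Aqp3 was lower in the Nfib KO groups, at 0.906 against 7.25 CPM in LM1 and 1.04 against 19.4 CPM in LM9. Those of immune cells (3 of 10) ran from 505 to 593 CPM and from 126 to 136 CPM, while Csf1r went from at most 1 count in a parental library to 12.4 and 12.3 CPM. Both CD73 and CD13 are known from several of these cell types, and the part of these markers in the levels of Nt5e and Anpep was not tested.

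Finally, the genes whose log2 CPM followed each member most closely over the 12 libraries were sought among 9294 protein-coding genes with a mean of at least 10 CPM. For Nt5e these were Dennd3, Insig1 and AI661453, each with r = 0.9998. Dennd3 went from 142 and 146 CPM in the parental groups to 7.17 and 6.89 CPM in the Nfib KO groups, Insig1 from 215 and 219 CPM to 23.6 and 23.8 CPM, and AI661453 from 31.4 and 35.6 CPM to 0 counts in all 6 libraries. For Anpep they were Prrx1 (r = 0.9978), Med23 (r = 0.9967) and Myb (r = 0.9964). Prrx1 had at most 3 counts in LM1 and 0 in LM9 and means of 170 and 172 CPM in the Nfib KO groups, and Myb went from 12 to 24 counts in LM1 and 5 to 7 in LM9 to 51.9 and 52.4 CPM. The likeness of Prrx1 and Myb thus includes a lower level in LM9 than in LM1, at few counts. Since the 12 libraries fall into parental and Nfib KO sets far apart, high values are common: 1048 genes (11.3%) had r above 0.99 with Nt5e and 149 (1.6%) with Anpep, and the members themselves had r = -0.9865. These correlations describe libraries that share their groups and carry no p.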

How the data were processed

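RNA-seq of tumourspheres gave 12 libraries in 4 groups of 3, taken from the sample titles. Per the labels and methods, stranded poly-A libraries were sequenced single-end, aligned with STAR to mm10 (both also in the submitters’ processing notes), and read 5′ ends over the exon union of each gene were counted with qCount of QuasR. The authors deposited these raw counts per gene, 1 table per library, neither normalised nor pooled. For these RNA-seq counts, software versions, the annotation release, the treatment of multi-mapping reads and the use of strand in counting are not given in the sources used here.

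The 18278 identifiers were matched to GENCODE M21 (18268 found). Counts were tested with limma-voom (limma 3.58.1, edgeR 4.0.16, R 4.3.3), the framework named in the methods, after filterByExpr and TMM scaling, in 1 model of 4 groups with 5 contrasts and Benjamini-Hochberg adjustment over 18176 genes within each contrast, at 0.05. CPM are TMM-scaled, and counts of 3 were the floor. In counts simulated at a dispersion of 0.01, 181 of 200 genes changed by 1 on the log2 scale were recovered for LM1KO minus LM1 with 13 false calls among 17578 genes, and 173 of 200 for LM1 minus LM9 with 7 among 17581. The simulated counts had no library like LM9 replicate 1 and far fewer changed genes than the data, where 81.2% were called for LM1KO minus LM1. They check the code only and do not measure recovery in these data. Alternatives were edgeR's quasi-likelihood test, DESeq2 1.42.0, other scalings and filters, a replicate block, fits to the groups compared only, and leaving out each library.

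The members, gene lists and tests were chosen with earlier results of these data known. Genes named were, in each role of a list, the one with the highest mean level over the 12 libraries, and the ones with the largest rise and fall among those called with the same sign in both lines, plus the adenosine receptors, Nfib, Hif1a, cell type markers at or near 0, and the 3 genes most like each member. Other markers (Esr1, Krt14, Col1a1, Pdgfrb, Col3a1, Dpt, Pdgfra, Dcn, Eng, Vwf, Esam, Pecam1, Aqp3), Entpd6, the genes set beside a highest level (Bst1, P2rx4, Cpd) and those named for a changed call (Entpd3, Enpp1, Nt5c3b, Lta4h, Rnpep) were chosen after their values were seen. Alpl is highest by CPM and Nt5c per kilobase. Counting intervals and floors cover counting error only.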

Additional observations from a re-analysis of the deposited data

How the results depend on the processing

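The directions of Anpep in all contrasts and of Nt5e between parental and Nfib KO libraries held under every alternative run. Scaling to total counts moved the median log2 difference of all genes from 0.08 to 0.31 in LM1 and from 0.13 to 0.49 in LM9, and the share of calls that were higher from 53.1% to 59.3% and from 53.8% to 63.4%. The adenosine list then had 17 higher and 13 lower genes in LM1 and 21 and 12 in LM9, with medians of 0.22 and 0.59. Of the 25 genes named by rule only Slc29a1 changed its calls, as P2rx7 alone did with median-ratio factors (now lower in LM9). With total counts Nt5e LM1KO minus LM1 was -4.88 and LM9KO minus LM9 -4.87, and Anpep LM1KO minus LM1 was 9.07. In that setting 2 differences of Nt5e turned direction, LM1 minus LM9 to 0.0826, without passing the threshold, and the interaction to -0.0086. Anpep LM9KO minus LM9 was 10.73 by limma-trend with a prior count of 2, since 7 counts fix its level in LM9. The number of genes called between LM1 and LM9, 1 in the reported fit, was 6159 by DESeq2, 5226 with total counts, 4670 among genes of at least 5 CPM, 0 with the replicate block and 0 with only the groups compared, and 0 to 11995 when a library was left out, the highest without LM9 replicate 1. For the interaction, 0 in the reported fit, it was 1 by edgeR, 78 by DESeq2, 1 with total counts, 1 by limma-trend and 0 to 10444 with a library left out, and for LM1KO minus LM9KO it was 6 with only the groups compared. The Nt5e difference LM1 minus LM9 ran from -0.0817 to -0.0194 with a library left out and passed the threshold only without LM9 replicate 1. At a mean of at least 5 CPM fewer genes were tested, and the lower genes numbered 8 in both lines for the adenosine list, and 5 in LM1 and 4 in LM9 for the peptidases. The cause of the other changes was not tested. Samples of the same replicate number did not deviate together over all genes (correlations of -0.059 to 0.025). With so few libraries per group, these values cannot show that the samples were unpaired. The replicate block changed no call of Nt5e or Anpep.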
